A study of Homo sapiens with 8 samples.

Results

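The genes described here are 10 members of the output arm of the Hippo pathway, namely the coactivator genes *YAP1* and *WWTR1*, the DNA-binding partners *TEAD1* and *TEAD4*, and the target genes *CCN1*, *CCN2*, *ANKRD1*, *AMOTL2*, *LATS2* and *AJUBA*. They were taken by name from a table of 36991 genes, and each matched 1 row. In this pathway a cascade of kinases ends in LATS1 and LATS2, which phosphorylate the coactivators YAP and TAZ (the product of *WWTR1*) and keep them out of the nucleus. When the kinases are quiet, for example in spread cells on a stiff matrix, YAP and TAZ enter the nucleus and switch on genes through TEAD factors. Activity is set largely on the proteins, so the mRNA of *YAP1* or *WWTR1* does not report it, and secreted matrix proteins such as those of *CCN1* and *CCN2* are widely used as readouts.

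RNA was sequenced from 4 lines made from MDA-MB-231, a human triple-negative breast cancer cell line, with 2 libraries per line. Control cells carried a scrambled shRNA and KD cells an shRNA that targets *DAXX*, a histone H3.3 chaperone gene. Cells named WT OE carried a wild-type *DAXX* cDNA, and cells named DSM OE one with the changes I7K and I733K, which disable both SUMO-interacting motifs of the protein. All were made by lentiviral transduction with puromycin selection, and the cDNAs were driven by a cytomegalovirus promoter. Each alteration was studied in 1 line, and no library used here came from cells with an empty cDNA vector, so a difference from control joins the alteration with the history of the line.

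The values are FPKM, the number of fragments scaled by transcript length and by the mapped fragments of the library, as the authors deposited them. Duplicates of a line correlated at 0.936 to 0.947 on the log2 scale over the tested genes and libraries of different lines at 0.893 to 0.932. Depth relative to the first control library, estimated from the lowest values, was 0.911 to 1.17, and the files give no read counts. *DAXX* itself was listed at 25.3 and 37.4 (control), 8.60 and 7.30 (KD), 158 and 283 (WT OE) and 64.6 and 93.8 (DSM OE). Among genes that mark this line, *CD44* was listed at 11.96 to 17.97 and *CAV1* at 35.8 to 66.9 over the 8 libraries, and *VIM* at 682 or more in 7 of them but at 39.1 in 1 KD library, against 970 in the other. Of 6 genes expected to be low in this line, *ESR1* and *PGR* were at 0 throughout and *CDH1* reached at most 0.0036. The others were detected, *ERBB2* at 2.65 to 5.42, *EPCAM* at 0.873 to 2.84 and *GATA3* at 0.232 to 1.41. Of 9 marker genes of leukocytes, endothelium, fibroblasts and liver, 8 were matched, 6 of them stayed under an FPKM of 1 in every library, and the others were *CD14* and *PDGFRB*. The summed level of the 8 was 2.96 to 3.24 in control, 5.32 to 6.26 in KD, 2.37 to 2.98 in WT OE and 2.26 to 4.02 in DSM OE. The higher sum in KD followed *CD14*, with means of 1.38 in control and 4.90 in KD, while *PDGFRB* had 1.69 and 0.865. The part of this sum in the results was not tested.

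Of the 10 genes, 9 reached an FPKM of 1 in at least 2 of the 8 libraries and were tested. *CCN2* and *ANKRD1* were the members that passed the test, and they did so in all 3 comparisons with control. *CCN2* was lower in KD and higher in both overexpression lines, while *ANKRD1* was lower in all 3. The test was a limma fit of log2(FPKM + 1) over 10465 genes, with an adjusted p under 0.05 counted as a call. In KD both members fell (2 of 9), beside 3.69% of all tested genes called lower and 3.51% called higher. In WT OE 1 member rose and 1 fell, beside 2.49% of all genes called higher and 2.62% lower. In DSM OE 1 rose and 1 fell, beside 5.51% higher and 5.5% lower. These shares rest on 753, 535 and 1153 called genes, which came to as few as 189 (without KD replicate 1), 98 and 250 (both without control replicate 2) with 1 library left out. The median log2 fold change of the 9 genes was -0.0035 (KD), 0.07 (WT OE) and -0.01 (DSM OE), beside 0.03, 0.02 and 0.02 over all genes tested. In bulk RNA a level is the sum over all cells, so fewer cells with a transcript and less of it per cell cannot be told apart. With duplicate cultures of 1 line per group, the p-values measure the spread between those cultures.

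**Figure D1:**
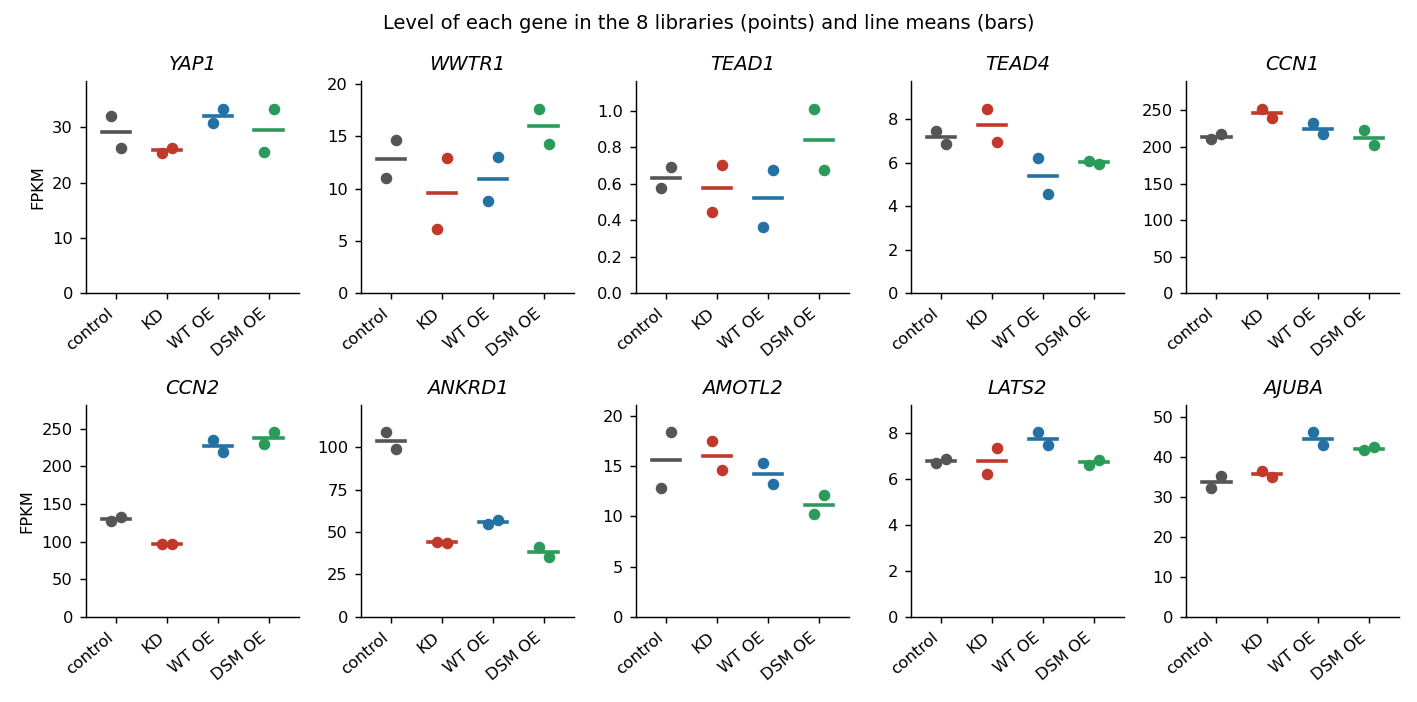
Level of the 10 genes in FPKM (vertical axis, from 0, with its own scale for each gene) in the 4 lines (horizontal axis). Points are single libraries and bars are means of 2. *CCN2* lies at 97 in KD, 128 to 133 in control and 219 to 245 in the overexpression lines, and *ANKRD1* is highest in control.

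*CCN2* encodes a secreted matricellular protein, also known as connective tissue growth factor. The gene (ENSG00000118523) lies on chromosome 6 of GRCh38.p14 from 131948176 to 131951372. Its FPKM was 128 and 133 (control), 96.9 and 97.3 (KD), 235 and 219 (WT OE) and 230 and 245 (DSM OE). No KD library overlapped a control library, and every library of the overexpression lines stood above all of control and KD. Control had a mean of 130 ± 3.24 (SD, n = 2), KD of 97.1 ± 0.228, WT OE of 227 ± 11.1 and DSM OE of 237 ± 10.7. The log2 fold changes over control, with a standard error of 0.08, were 0.80 in WT OE (limma, adjusted p = 0.00965) and 0.86 in DSM OE (adjusted p = 0.00554), or 1.74-fold and 1.82-fold. In KD *CCN2* fell by 0.42 (adjusted p = 0.0399), or 1.34-fold. That call was lost without any 1 of the 8 libraries (-0.44 to -0.39, adjusted p = 0.0538 to 0.17), when only the KD and control libraries were fitted (adjusted p = 0.0759), without the filter (0.0607) and without the variance trend (0.0634). The WT OE call did not survive the loss of either control library or of WT OE replicate 1 (0.75 to 0.85 over the 8, adjusted p = 0.0224 to 0.064), nor a fit of those 4 libraries only (adjusted p = 0.0785). The DSM OE call was lost under 1 of the 16 alternatives tried, the fit of the DSM OE and control libraries only (adjusted p = 0.0535).

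In order of mean level *CCN2* ran from KD through control and WT OE to DSM OE, and the test did not separate the last pair. Tested directly, WT OE stood at -0.07 on the log2 scale relative to DSM OE, with a 95% interval of -0.27 to 0.14 (adjusted p = 0.742). *DAXX* averaged 221 in the former and 79.2 in the latter, which did not pass the test (limma, adjusted p = 0.122). The mutation and the amount of *DAXX* mRNA cannot be told apart here. Over control, *DAXX* was called in KD (adjusted p = 0.0364) and WT OE (0.0175) but not in DSM OE (0.0661). Of the 8 alternatives that kept all libraries, 2 ended the KD call and 1 the WT OE call. With 1 library left out, the KD call was lost in 6 of the 8 fits (log2 fold change -2.10 to -1.56). The WT OE call was lost in 3 of the 8 (2.33 to 3.16). Against KD, *CCN2* was higher by 1.22 in WT OE (adjusted p = 0.00119) and by 1.28 in DSM OE (adjusted p = 0.000874). These calls held under each of the 16 alternatives. *CCN2* was the 1 member called in either of these comparisons, where 5.78% of all genes were called higher and 5.91% lower for WT OE and 8.04% higher and 8.83% lower for DSM OE. The median over the 9 members was 0.23 and -0.01 in these comparisons, and 0.00 over all genes tested in each. The comparisons with KD share its 2 libraries.

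*ANKRD1* encodes a nuclear ankyrin repeat protein, first studied in heart muscle, and lies on chromosome 10 from 90912096 to 90921087 (ENSG00000148677). It was listed at 109 and 98.7 (control), 44.3 and 43.5 (KD), 54.8 and 56.8 (WT OE) and 41.3 and 35.4 (DSM OE). Both control libraries stood above the other 6, and both WT OE libraries stood above those of KD and DSM OE. *ANKRD1* fell by 1.22 on the log2 scale in KD (standard error 0.11, adjusted p = 0.00323), by 0.88 in WT OE (adjusted p = 0.0164) and by 1.41 in DSM OE (adjusted p = 0.00295). These 3 values share the control libraries, so that a change of the control line alone would enter each. The KD and DSM OE calls held under all 16 alternatives. The WT OE call was lost without either control or either WT OE library (-0.95 to -0.81 when each of the 8 was dropped, adjusted p = 0.0234 to 0.0815) and in a fit of those 4 libraries only (adjusted p = 0.0785).

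Between the overexpression lines *ANKRD1* stood 0.53 higher in WT OE (95% interval 0.27 to 0.80), which did not pass the test over all genes (adjusted p = 0.0823). It was the 1 member at an unadjusted p under 0.05 in that comparison, in which limma called 0 members, 0.946% of all genes higher and 0.65% lower (median 0.08 over the members and -0.01 over all genes). Of the 10465 tested genes, 919 were higher and 820 lower at that unadjusted p. In order of mean level *ANKRD1* ran from DSM OE (38.3 ± 4.17, SD, n = 2) through KD (43.9 ± 0.542) and WT OE (55.8 ± 1.41) to control (104 ± 7.02). The test did not separate DSM OE from KD (-0.19, adjusted p = 0.268) or WT OE from KD (0.34, adjusted p = 0.10).

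**Figure D2:**
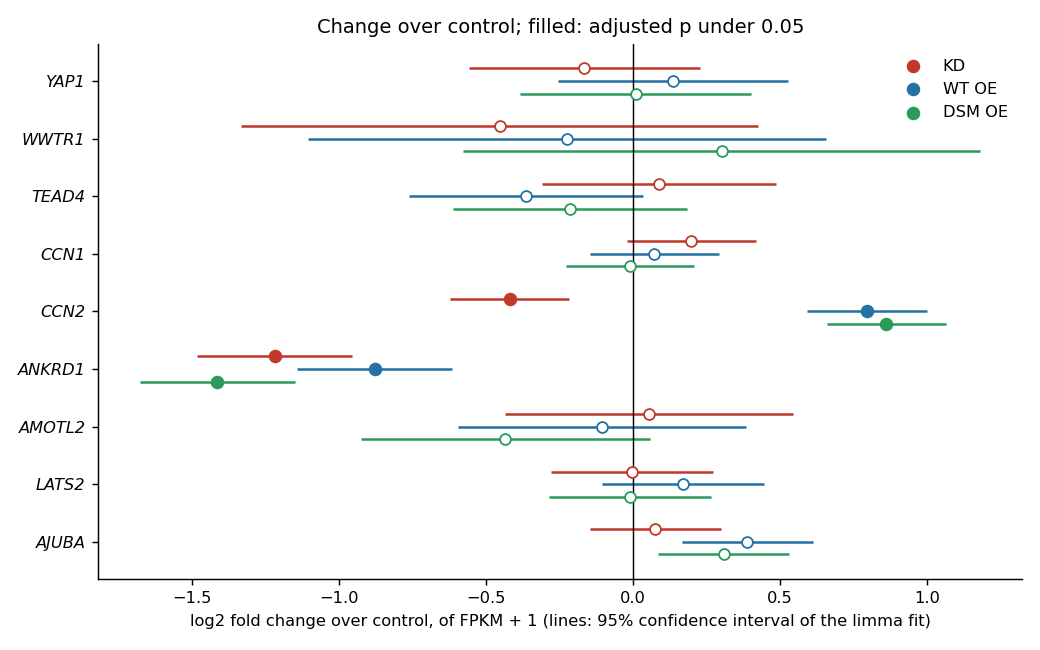
Log2 fold change over control of FPKM + 1 (horizontal axis) for the 9 tested genes (vertical axis) in KD, WT OE and DSM OE. Lines are 95% confidence intervals of the limma fit, not adjusted for the number of genes, and filled points have an adjusted p under 0.05. *CCN2* points lie on both sides of 0 and all *ANKRD1* points lie below it.

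The stretches just before the start sites of *CCN2* and *ANKRD1*, the 2 called members, are shown here. Whether the sites in them bear on the changes was not tested. They are the 250 bases before the RefSeq start site, written 5′ to 3′ on the gene's strand (the minus strand for both). They lie at chr6:131951373-131951622 and chr10:90921088-90921337 of GRCh38.p14. Capitals mark GGAATG, the core TEAD site, and TGANTCA, a loose AP-1-like pattern in which N is any base.
CCN2: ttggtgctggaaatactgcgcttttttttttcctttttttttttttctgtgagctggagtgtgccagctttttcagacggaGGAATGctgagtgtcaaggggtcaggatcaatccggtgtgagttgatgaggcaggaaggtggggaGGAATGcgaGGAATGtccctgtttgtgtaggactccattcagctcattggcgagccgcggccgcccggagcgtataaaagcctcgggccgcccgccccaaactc
ANKRD1: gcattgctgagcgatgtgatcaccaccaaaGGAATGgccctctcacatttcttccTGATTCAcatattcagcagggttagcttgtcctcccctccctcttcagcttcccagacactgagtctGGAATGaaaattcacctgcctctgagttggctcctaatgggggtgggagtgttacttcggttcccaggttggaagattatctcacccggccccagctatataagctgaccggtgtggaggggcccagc

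*CCN2* held 3 matches to GGAATG, with first bases at -169, -104 and -95 from the start site, and none to TGANTCA. *ANKRD1* held 2, at -220 and -128, and 1 match to TGANTCA at -195, which reads TGATTCA. Both strands were searched, and the motifs do not overlap here. Of the 35116 promoters of the same length in the RefSeq table, 11.9% held GGAATG at least once, 0.94% at least 2 times and 0.0826% at least 3 times, and 6.57% held TGANTCA. Of the 10 members, 7 had a promoter in that table, 10 start sites in all. *CCN1*, *TEAD1* and *TEAD4* had none there and were not searched, so members with and without a call cannot be compared for these sites. *YAP1* held 1 match to GGAATG, at -162, as did 1 of 2 start sites each of *AMOTL2* and *AJUBA*, while these letters were not in the windows of *WWTR1* and *LATS2*. A match describes letters only, and binding was not measured.

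**Figure D3:**
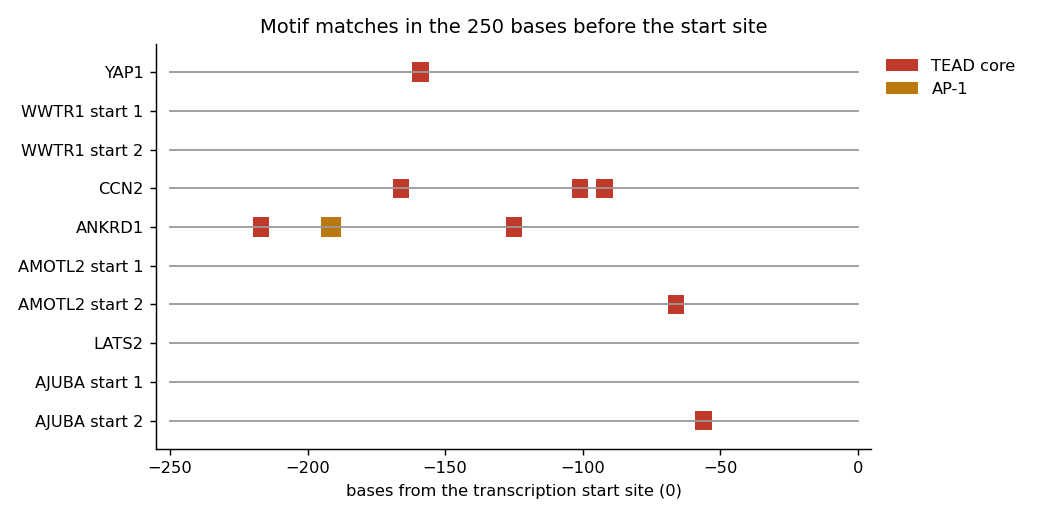
Matches to the core TEAD site and to the loose AP-1-like pattern TGANTCA, labelled AP-1 (coloured blocks), by distance from the transcription start site in bases (horizontal axis), for the 10 start sites of 7 genes (vertical axis). *CCN2* has 3 TEAD core matches and *ANKRD1* has 2, with the AP-1-like match between them.

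*CCN1*, on chromosome 1 from 85580761 to 85583950 (ENSG00000142871), encodes the nearest relative of the *CCN2* product in this set and is a classical YAP target too. It was the most abundant member, at 210 and 218 (control), 252 and 239 (KD), 232 and 218 (WT OE) and 223 and 203 (DSM OE). Its level is higher than that of 99.3% of the tested genes. KD libraries stood above all others, WT OE libraries reached down to just above the higher control library, and those of DSM OE overlapped control. Against control the log2 values were 0.20 (KD), 0.07 (WT OE) and -0.01 (DSM OE), with adjusted p = 0.252, 0.686 and 0.951 and 95% intervals of -0.02 to 0.42, -0.15 to 0.29 and -0.23 to 0.21. The interval in WT OE thus ends at 0.29, and that of *CCN2* in the same line runs from 0.593 to 0.998.

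Because FPKM is scaled by length, the 3 genes can also be set against each other within a library. The ratio of *CCN2* to *CCN1* was 0.609 and 0.608 (control), 0.384 and 0.407 (KD), 1.01 and 1.0 (WT OE) and 1.03 and 1.21 (DSM OE). *CCN1* was thus the more abundant of the pair in control and KD, and both were about level in WT OE. The ratio of *ANKRD1* to *CCN1* was 0.517 and 0.453 in control and 0.175 to 0.261 in the other 6 libraries. That of *CCN2* to *ANKRD1* was 1.18 and 1.34 (control), 2.19 and 2.24 (KD), 4.28 and 3.85 (WT OE) and 5.57 and 6.92 (DSM OE). These ratios are descriptions with no test.

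**Figure D4:**
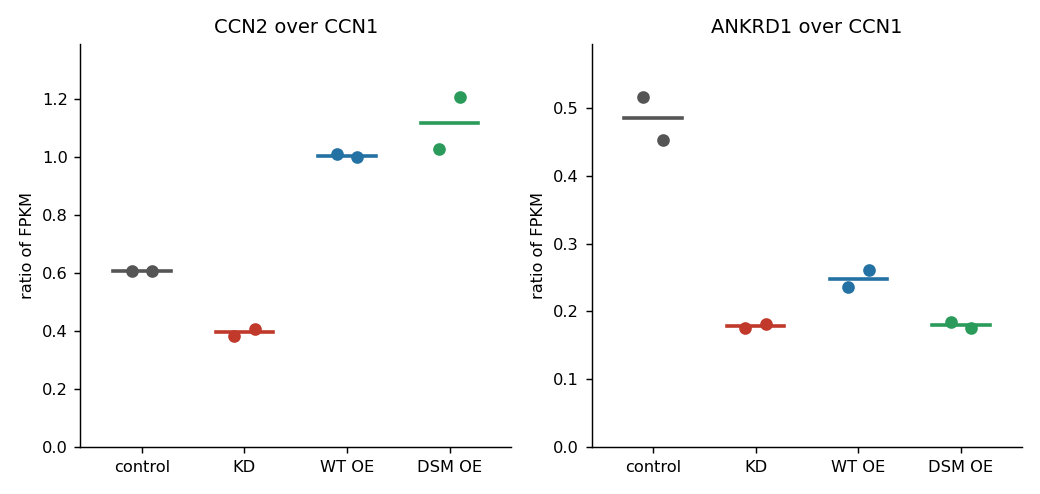
Ratio of FPKM within each library (vertical axis, from 0) of *CCN2* to *CCN1* (left) and of *ANKRD1* to *CCN1* (right) in the 4 lines (horizontal axis). Points are libraries and bars are means of 2. The first ratio is 0.384 to 0.407 in KD and 1.0 to 1.21 in the overexpression lines, and the second is highest in control.

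The coactivator genes did not pass the test in any of the 6 comparisons. *YAP1* (chromosome 11, 102110447 to 102233424, ENSG00000137693) was listed at 32.1 and 26.4 (control), 25.3 and 26.3 (KD), 30.8 and 33.4 (WT OE) and 25.6 and 33.4 (DSM OE). KD libraries stood at or just under the lower control library and below both of WT OE, and the other groups overlapped. Its log2 fold changes over control were -0.17, 0.14 and 0.01 (adjusted p = 0.592, 0.67 and 0.982), with a 95% interval of -0.26 to 0.53 in WT OE. *WWTR1*, which encodes TAZ (chromosome 3, 149517235 to 149724788, ENSG00000018408), was listed at 11.0 and 14.6, 6.17 and 12.9, 8.77 and 13.1, and 17.6 and 14.3 in the same order of lines. Its duplicates differed by up to 2.10 times (in KD), and the interval in KD ran from -1.34 to 0.43, so changes of the size seen in *CCN2* were not detectable for it at this spread. Averaged over the 8 libraries *YAP1* stood at 29.2 and *WWTR1* at 12.3.

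The TEAD factors carry YAP and TAZ to DNA. *TEAD4* (chromosome 12, 2959397 to 3040676, ENSG00000197905) was listed at 7.47 and 6.85 (control), 8.48 and 6.94 (KD), 6.20 and 4.57 (WT OE) and 6.09 and 5.96 (DSM OE). The overexpression libraries stood below all of control and KD. The log2 fold changes of -0.37 and -0.22 over control did not pass (adjusted p = 0.254 and 0.44), nor did the -0.45 of WT OE against KD (adjusted p = 0.133). *TEAD1* (chromosome 11, 12674421 to 12944737, ENSG00000187079) was listed at 0.366 to 1.01 over the 8 libraries and was not tested in the limma fit. Without a filter its log2 fold changes over control were -0.06, -0.11 and 0.17 (adjusted p = 0.95, 0.818 and 0.627).

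*AMOTL2* and *LATS2* are target genes that act back on the pathway, an angiomotin family scaffold that binds YAP and a kinase that phosphorylates it. *AMOTL2* (chromosome 3, 134355345 to 134375417, ENSG00000114019) was listed at 12.8 and 18.4 (control), 17.5 and 14.6 (KD), 15.3 and 13.2 (WT OE) and 10.2 and 12.1 (DSM OE). DSM OE libraries were the lowest, at -0.44 over control (95% interval -0.93 to 0.06, adjusted p = 0.218). *LATS2* (chromosome 13, 20973036 to 21061586, ENSG00000150457) was listed at 6.19 to 8.01 in the 8 libraries. Relative to control it stood at -0.0035 (KD), 0.17 (WT OE) and -0.01 (DSM OE) on the log2 scale (adjusted p = 0.99, 0.432 and 0.962), and no interval over control reached beyond -0.29 or 0.44.

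*AJUBA* encodes a LIM domain protein that binds LATS kinases and holds them back, and it lies on chromosome 14 from 22971177 to 22982551 (ENSG00000129474). It was listed at 32.3 and 35.2 (control), 36.3 and 34.9 (KD), 46.1 and 42.9 (WT OE) and 41.6 and 42.5 (DSM OE). All 4 overexpression libraries stood above the 4 shRNA libraries. The log2 fold changes over control were 0.39 in WT OE and 0.31 in DSM OE (standard error 0.09), neither of which passed (adjusted p = 0.0714 and 0.0863). In KD the value was 0.08 (adjusted p = 0.677).

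Over the 8 libraries, the genes whose log2 level was most like that of *CCN2* were *PNMA2*, *SAT1*, *NTN4* and *TSC22D3*, with Pearson r = 0.995, 0.994, 0.994 and 0.989. *SAT1*, a polyamine acetyltransferase gene, was listed at 24.6 and 25.5 (control), 14.8 and 16.2 (KD), 55.6 and 57.3 (WT OE) and 50.7 and 58.8 (DSM OE). *NTN4* encodes a secreted netrin and *TSC22D3* a glucocorticoid-induced leucine zipper protein. The r with *CCN2* was 0.955 for *AXL* and 0.87 for *NT5E*, both YAP targets of the wider list, 0.916 for *DAXX*, and -0.558 and -0.276 for *CCN1* and *ANKRD1*. *AXL* and *NT5E* were picked outside the naming rule, and r is not given for the other targets of that list. Some of those ran otherwise: *F3* and *NUAK2* had their lowest means in DSM OE, where *CCN2* had its highest. The genes most like *YAP1* were *YIPF3*, *ZDHHC20*, *OGDH* and *CALM2* (r = 0.964, 0.956, 0.931 and 0.917). These are descriptions over 8 libraries that fall into 4 lines, and for *YAP1* they follow differences between duplicates, since *YIPF3* was 27.96 and 16.1 in the control libraries and 15.0 and 33.3 in those of DSM OE.

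Of 17 other target genes of YAP and TAZ, 16 were tested. In KD 1 rose and 2 fell, beside 3.51% and 3.69% of all tested genes. In WT OE 3 rose and 0 fell, beside 2.49% and 2.62%, and in DSM OE 2 rose and 3 fell, beside 5.51% and 5.5%. At an unadjusted p under 0.05 in limma, 3 were higher and 3 lower in KD, 4 and 3 (WT OE), and 5 and 4 (DSM OE). Of all 10465 tested genes, 1267 were higher and 1170 lower at that p in KD, 1275 and 1086 (WT OE), and 1553 and 1406 (DSM OE). The median log2 fold changes over control were 0.01, 0.08 and -0.19, beside 0.03, 0.02 and 0.02 over all genes tested. With so few genes, these counts are a description of the list. Among the 16, *ASAP1*, named after its values were seen, was 159 times apart between the DSM OE duplicates (6.54 and 0.0411). *F3*, the tissue factor gene, was listed at 39.2 and 33.97 (control), 35.9 and 37.3 (KD), 26.3 and 28.2 (WT OE) and 14.8 and 14.3 (DSM OE). It fell by 1.27 in DSM OE (adjusted p = 0.00356), a call that held with any 1 library left out. Its level was 0.86 higher in WT OE than in DSM OE (adjusted p = 0.0276), and that call was lost without any 1 library (adjusted p = 0.0573 to 0.106).

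*NUAK2*, an AMPK-related kinase gene, was listed at 0.907 and 1.04 (control), 3.42 and 3.53 (KD), 0.897 and 1.04 (WT OE) and 0.590 and 0 (DSM OE). It rose by 1.18 in KD over control (adjusted p = 0.036), which was lost without either control, KD or WT OE library (adjusted p = 0.0126 to 0.145 over the 8). *PTPN14*, a phosphatase gene whose product binds YAP, fell by 0.92 in KD (adjusted p = 0.0429), from 19.3 and 21.0 to 9.20 and 11.2, and was lost without any control, KD or DSM OE library (adjusted p = 0.0305 to 0.182). *CCDC80*, a secreted matrix protein gene, was listed at 1.83 and 0.848 (control), 2.83 and 2.84 (KD), 6.94 and 4.15 (WT OE) and 4.53 and 5.53 (DSM OE). It rose by 1.48 with wild-type *DAXX* (adjusted p = 0.0463) and by 1.39 with the mutant (adjusted p = 0.0353). The WT OE call was lost without any 1 library (adjusted p = 0.0713 to 0.163), and the DSM OE call without any but those of WT OE (0.0373 to 0.135).

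The other calls over control among these targets were named after their values were seen. *AXL*, a receptor tyrosine kinase gene, and *IGFBP3*, an IGF-binding protein gene, rose by 0.53 and 0.87 in WT OE (adjusted p = 0.0483 and 0.0228). *NT5E*, an ectonucleotidase gene, rose by 0.73 in DSM OE (adjusted p = 0.0238), where *TGFB2*, a TGF-beta ligand gene, fell by 0.76 (adjusted p = 0.0252). *CRIM1*, the gene of a transmembrane protein that binds BMP ligands, fell by 0.46 in KD (adjusted p = 0.0311) and by 0.40 in DSM OE (adjusted p = 0.0358). With 1 library left out, *AXL* and *CRIM1* were lost in each of the 8 fits, and *IGFBP3*, *NT5E* and *TGFB2* in 6 of 8 (*IGFBP3* kept its call without either DSM OE library, the others without either WT OE library). *TGFB2* was also 0.92 higher in WT OE than in DSM OE (adjusted p = 0.0445), lost without any 1 library.

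Against KD, 1 of the 16 was higher and 1 lower in WT OE, close to the 5.78% and 5.91% over all genes. In DSM OE 2 were higher and 3 lower, beside 8.04% and 8.83%. In WT OE against DSM OE 2 were higher and 0 lower, beside 0.946% and 0.65%. At an unadjusted p under 0.05 in limma, 4 were higher and 1 lower there, beside 919 and 820 of the 10465 tested genes. *AXL* was 0.84 higher in WT OE (adjusted p = 0.00865) and 0.64 higher in DSM OE (adjusted p = 0.014), with 105 and 99.2 in the KD libraries and 151 to 194 in the other 4. Its first call was lost without either KD library and its second without those or DSM OE replicate 2. *NUAK2* fell short of KD, at -1.18, in WT OE (adjusted p = 0.0257, lost without 6 of the 8) and at -1.83 in DSM OE (adjusted p = 0.00633, kept with any 1 library left out). The remaining calls in DSM OE were *F3* at -1.28 (adjusted p = 0.00199, kept with any 1 library left out), *TGFB2* at -0.72 (adjusted p = 0.0206, lost without 3 of 8), and *NT5E* at 0.57 (adjusted p = 0.0326, lost without 6 of 8).

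Alternatives that kept all libraries, 8 in number or 7 where the stricter filter drops the gene, also ended calls among these targets. Over control, *AXL* in WT OE was lost under 6 of 8, median scaling and quantile normalization among them. *CCDC80* was lost under 4 of 7 in WT OE and 3 of 7 in DSM OE, and *NUAK2* in KD under 3 of 7, a pseudocount of 0.1 among them. *PTPN14* in KD and *CRIM1* in DSM OE were lost under 3 of 8. *CRIM1* in KD, *IGFBP3*, *NT5E* and *TGFB2* were each lost under 2 of 8. Between WT OE and DSM OE, *TGFB2* was lost under 3 of 8 and *F3* under 2 of 8. Against KD, *NT5E* in DSM OE was lost under 3 of 8, *NUAK2* in WT OE under 2 of 7, and *AXL* and *TGFB2* in DSM OE under 1 of 8, the fit of those lines only. The calls of *F3* in DSM OE, over control and against KD, of *NUAK2* in DSM OE and of *AXL* in WT OE, both against KD, held under all of these.

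**Figure D5:**
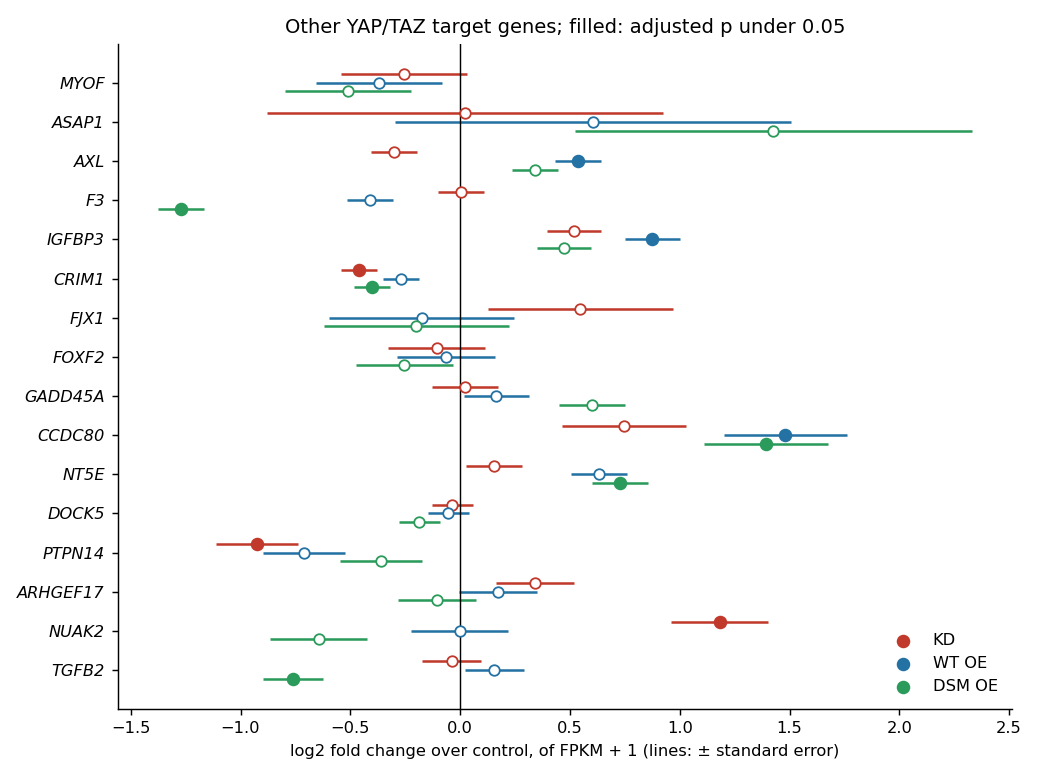
Log2 fold change over control of FPKM + 1 (horizontal axis) for 16 other YAP and TAZ target genes (vertical axis) in KD, WT OE and DSM OE. Lines are 1 standard error of the limma fit each way, and filled points have an adjusted p under 0.05. Filled points lie on both sides of 0, from -1.27 for *F3* in DSM OE to 1.48 for *CCDC80* in WT OE.

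Of 24 genes of the kinase cascade and its regulators, 22 were tested, and *STRN*, which encodes a subunit of a phosphatase complex acting on the Hippo kinases, was the 1 called in KD, where 3.69% of all tested genes fell and 3.51% rose. It fell by 0.77 (adjusted p = 0.0367), from 2.09 and 2.195 in control to 0.691 and 0.999, and was lost without any control, KD or DSM OE library (adjusted p = 0.0498 to 0.164). In WT OE and DSM OE limma called 0 of the 22 over control, beside the 2.49% to 5.51% each way over all genes, and at an unadjusted p under 0.05 there were 2 higher and 1 lower in each. The median of the 22 over control was 0.04 (KD), 0.00 (WT OE) and 0.18 (DSM OE), beside 0.03, 0.02 and 0.02 over all genes tested. Against KD, 1 of the 22 was higher and 1 lower in WT OE, beside 5.78% and 5.91% over all genes. In DSM OE 2 were higher and 1 lower against KD, beside 8.04% and 8.83%. *STRN* was 0.75 higher in WT OE and 1.11 higher in DSM OE than in KD (adjusted p = 0.0283 and 0.00785). *WWC1*, the gene of the scaffold KIBRA, stood at -1.42 and -1.24 there (adjusted p = 0.0213 and 0.0248), with 7.91 and 7.11 in the KD libraries, 1.502 and 3.02 in those of WT OE and 2.19 and 3.08 in those of DSM OE. *MOB1B*, which encodes a partner of the LATS kinases, was 0.58 higher in DSM OE than in KD (adjusted p = 0.0331). *STRN* in DSM OE kept its call with any 1 library left out and in WT OE lost it without 6 of the 8. *WWC1* in WT OE lost it without either KD library or WT OE replicate 1 (adjusted p = 0.0202 to 0.109), and in DSM OE without either KD or either DSM OE library (0.0156 to 0.114). *MOB1B* lost it without 5 of the 8 (0.043 to 0.148). Of the 7 alternatives that kept all libraries, 3 ended the calls of *STRN* in KD and in WT OE and that of *MOB1B*, 1 ended that of *WWC1* in WT OE, and 0 ended those of *STRN* and *WWC1* in DSM OE. Some upstream genes differed widely between duplicates, among them *AMOTL1*, 20.5 times apart in WT OE.

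Of 6 genes of other TEAD factors and their cofactors, 3 were tested, and limma called 0 over control in any line, which says little over so few genes beside shares of 2.49% to 5.51% each way. At an unadjusted p under 0.05, 1 was lower in KD, 1 was higher in WT OE and 0 were past it in DSM OE. Of all 10465 tested genes, 1170 were lower at that p in KD and 1275 higher in WT OE. In DSM OE 1553 were higher and 1406 lower. Over the 3 tested genes of this list the median was -0.27 (KD), 0.36 (WT OE) and -0.06 (DSM OE). Against KD, 1 of the 3 was higher and 0 lower in WT OE, beside 5.78% and 5.91% over all genes. In DSM OE 1 was higher and 0 lower against KD, beside 8.04% and 8.83%. *TEAD2*, another TEAD gene, was listed at 11.9 and 9.55 (control), 6.28 and 2.35 (KD), 13.3 and 14.7 (WT OE) and 10.1 and 7.84 (DSM OE). It was 1.60 higher in WT OE than in KD (adjusted p = 0.0446), a call kept, of the 8 libraries left out in turn, only without KD replicate 1, and lost under 3 of the 8 other alternatives. *VGLL4*, whose product competes with YAP for TEAD factors, was 0.64 higher in DSM OE than in KD (adjusted p = 0.0493), and that call was likewise kept only without either control library and lost under 4 of 8. Its level was 9.10 and 9.07 in WT OE, 8.70 and 9.01 in DSM OE, 7.60 and 5.72 in control and 4.68 and 6.04 in KD.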

How the data were processed

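FPKM values from poly A libraries were computed and deposited by the authors and were used unchanged. The study's methods name HISAT2, StringTie and Ballgown and give GRCh38 as the build for the RNA reads. The submitters' notes name both GRCh38 and hg19. The step from transcripts to genes is not described in those sources. Of 36991 Ensembl identifiers, 35797 were matched to a symbol, and no member shared its values with another gene. Positions and promoters come from RefSeq on GRCh38.p14. The files give no read counts per gene or mapped total per library, so no counting error is given.

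Genes that reached an FPKM of 1 in 2 or more of the 8 libraries (10465) were tested on log2(FPKM + 1), which understates changes of low genes. The means of the 4 lines were fitted with limma 3.58.1 in R 4.3.3 (eBayes with a trend, 4 residual and 1.863 prior degrees of freedom), for 6 comparisons. P-values are two-sided, adjusted by the Benjamini-Hochberg method over all tested genes within a comparison, with a threshold of 0.05. The fit was tested on simulated data. With 2 libraries a group, the smallest p that an exact permutation test allows is 0.333, and none was used. The labels call the duplicates separate cultures, but the notes elsewhere speak of triplicates. Titles of the DSM OE libraries also carry the letters WT, and the genotype label was used to read them.

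The members and the wider gene lists were chosen with earlier results of these data known. Named are all members, *DAXX*, up to 4 called genes of each wider list by size of change, and the 4 genes most like *CCN2* and *YAP1* with a mean FPKM of at least 5 (genes named after their values were seen are marked so). Alternatives comprised quantile normalization and median scaling, a pseudocount of 0.1, dropping the filter or raising it to a mean FPKM of 5, dropping the variance trend, fitting only the lines compared, adding the replicate number as a term, and leaving out each library in turn, where the lone library left in a line is assumed to vary like the others.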

Additional observations from a re-analysis of the deposited data

How the results depend on the processing

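The 8 member calls were tried under 16 alternatives each, and 106 of the resulting values kept direction and call, 22 kept the direction only and 0 reversed. In KD over control the count of 2 called members became 1 (*CCN2* lost, *ANKRD1* kept) without a filter, without the variance trend, with the replicate block, when only the lines compared were fitted, and with any 1 library left out (1 to 1). In WT OE over control it became 0 when only those lines were fitted and was 0 to 2 with 1 library left out. In DSM OE over control it became 1 when only those lines were fitted. Replicate numbers did not pair the samples (deviations correlated at -0.061 to 0.043), and the replicate block lost no other member call, with *CCN2* in KD at an adjusted p of 0.0948.

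Of the values of members not called, 710 kept their direction and 26 changed sign, all of them uncalled throughout, and the cause was not tested. Under quantile normalization *CCN1* became 0.0783 (DSM OE over control) and -0.0115 (WT OE against DSM OE), and *LATS2* became 0.0141 (DSM OE against KD). Under median scaling *YAP1* became -0.0344 in DSM OE over control. With 1 library left out, the KD values over control spanned -0.19 to 0.30 for *AMOTL2*, -0.11 to 0.10 for *LATS2*, -0.0386 to 0.22 for *TEAD4* and -0.93 to 0.0244 for *WWTR1*. The WT OE values over control spanned -0.35 to 0.14 for *AMOTL2*, -0.49 to 0.0361 for *WWTR1* and -0.0028 to 0.27 for *YAP1*. Those of DSM OE spanned -0.079 to 0.057 for *CCN1*, -0.0324 to 0.0099 for *LATS2* and -0.18 to 0.19 for *YAP1*. WT OE against DSM OE spanned -0.33 to 0.0349 for *TEAD4* and -0.0569 to 0.31 for *YAP1*. Against KD, *WWTR1* in WT OE spanned -0.25 to 0.71, and in DSM OE *LATS2* spanned -0.11 to 0.10 and *YAP1* -0.0103 to 0.36.

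Over all genes the calls went from 753 to 268 in KD, 535 to 16 in WT OE and 1153 to 149 in DSM OE over control when only the lines compared were fitted, a fit with 2 residual degrees of freedom. The replicate block left 371, 140 and 542. WT OE against DSM OE went from 167 to 0 and 22 in these 2 fits, WT OE against KD from 1223 to 329 and 761, and DSM OE against KD from 1765 to 800 with only those lines. With the stricter filter, which tests 5368 genes, KD over control had 460, and the last 3 comparisons had 110, 746 and 1116. Leaving out 1 library lowered the calls over all genes to a minimum of 189 in KD (68 higher and 121 lower, without KD replicate 1) and, without control replicate 2, to 98 in WT OE (69 higher and 29 lower) and 250 in DSM OE (150 higher and 100 lower), all over control. In the last 3 comparisons the lowest counts, each without KD replicate 1, were 23, 262 and 546. The 2 libraries a line, with no read counts, limit every value here.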
